A study of Mus musculus with 11 samples.

Results

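The 30 genes described here make and move cholesterol, and they were taken by name from the 55401 genes in the count files. They comprise 7 enzymes of the mevalonate route, 11 enzymes from squalene to cholesterol, 5 genes of sterol sensing, 1 isoprenoid branch enzyme, 2 genes of sterol transport and uptake, and 4 genes of efflux and its liver X receptors (LXR). All 30 passed the filter on low counts, and 29 reached a mean of at least 10 CPM (counts scaled to library size) in either arm. RNA was sequenced from mouse trigeminal ganglion neurons, which sense touch, heat and pain in the face and mouth. The neurons carried the retrograde tracer DiI and were sorted by fluorescence from the ganglia of both sides. The 6 MOC1 libraries, 3 female and 3 male, came from mice bearing MOC1, a tumour line derived from oral squamous carcinoma in mice. The 5 sham libraries, 3 female and 2 male, came from sham controls. No genotype, strain or age is given in the sources used here, nor the site of the tumour or of the tracer. No source says that each library is a separate animal, so the p-values measure the spread between these libraries, which may be technical.

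Cells build cholesterol from acetyl units, first through mevalonate to isoprenoids and squalene, then through lanosterol to the finished sterol. The route is set mainly by SREBP-2, a transcription factor held in the endoplasmic reticulum with its escort SCAP by the INSIG proteins when sterol is plentiful, and released to switch on the enzymes when sterol is scarce. Excess sterol, through oxysterols, activates the LXR nuclear receptors, which induce the efflux pumps Abca1 and Abcg1. In the brain cholesterol is made locally, since lipoproteins of the blood hardly enter it, and glia pass cholesterol to neurons on particles that carry apolipoprotein E. Whether the same holds in the trigeminal ganglion was not measured here.

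Promoter windows from RefSeq (GRCm38.p6), covering 250 bases before to 50 after a transcription start, were found for 25 of the 30 genes. They were searched on both strands for the letters of a sterol regulatory element core (TCACNCCAC), of the CCAAT box bound by NF-Y, a partner of SREBP, and of an LXR direct repeat (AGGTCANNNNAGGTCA, with 1 mismatch allowed). CCAAT was present in at least 1 window of 19 of the 25 genes (76.0%), against 41.1% of the 27025 genes with a window. Some genes have several windows. Counted by window, CCAAT was present in 20 of 34 for these genes, against 12289 of 32851 (37.4%) over all genes. It was present in 6 of the 8 genes that are described below as lower in MOC1 libraries and in 13 of the 17 others. The sterol regulatory element core was present in Hmgcs1 alone, where it starts 137 bases before the transcription start, and in 1.44% of all genes. The LXR repeat was present in none of the 25 and in 0.278% of all genes. These matches are letters in a window, and no binding was measured. Hmgcs1, Insig1 and Lss are shown because they were lower in MOC1 libraries and each has at least 1 of the motifs outside any annotated untranslated region, which is where each stretch ends. The lines run 5′ to 3′ on the strand of the gene, and capitals mark the sterol regulatory element core (TCACCCCAC) and CCAAT on either strand (CCAAT or ATTGG).
Hmgcs1, chr13:119690101-119690350, plus strand: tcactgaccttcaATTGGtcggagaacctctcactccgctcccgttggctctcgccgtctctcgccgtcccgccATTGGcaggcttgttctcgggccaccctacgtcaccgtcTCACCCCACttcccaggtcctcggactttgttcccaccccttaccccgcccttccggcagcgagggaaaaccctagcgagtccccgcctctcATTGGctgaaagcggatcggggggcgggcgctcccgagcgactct
Insig1, chr5:28071162-28071362, plus strand: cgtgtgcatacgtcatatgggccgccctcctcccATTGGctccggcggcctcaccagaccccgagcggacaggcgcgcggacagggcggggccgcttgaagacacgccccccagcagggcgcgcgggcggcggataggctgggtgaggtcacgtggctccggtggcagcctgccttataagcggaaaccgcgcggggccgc
Lss, chr10:76531355-76531604, plus strand: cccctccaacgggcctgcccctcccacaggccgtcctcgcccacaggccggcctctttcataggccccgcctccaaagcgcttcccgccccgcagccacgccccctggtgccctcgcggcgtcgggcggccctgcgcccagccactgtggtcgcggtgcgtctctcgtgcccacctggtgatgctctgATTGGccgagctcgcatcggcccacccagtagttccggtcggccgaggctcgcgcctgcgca
Hmgcs1 carried 3 CCAAT boxes beside its sterol regulatory element core in the stretch shown, while Insig1 and Lss carried 1 CCAAT box each.

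The question put to these genes is whether their transcripts differ between neurons of tumour-bearing and of sham mice. In MOC1 libraries, scaled by TMM (edgeR's trimmed mean of M-values, which takes most genes as even), 8 of the 30 genes fell and none rose. With scaling to satellite glia markers, in contrast, none of the 30 fell and 27 rose. That scaling also called 10060 of all 16817 genes tested higher and 50 lower, and moved their median log2 fold change to 1.08. The 8 that fell under TMM scaling stayed below that median. A change of scaling moves all genes by nearly the same amount, so that order was largely given in advance. The 8 were Cyp51, Hmgcs1, Msmo1, Insig1, Lrp1, Dhcr7, Lss and Abca1. The losses ran from 41.3% for Cyp51 to 20.5% for Abca1. The enzymes Cyp51, Hmgcs1, Msmo1, Dhcr7 and Lss, the feedback protein Insig1, the lipoprotein receptor Lrp1 and the efflux pump Abca1 made up the 8, so that steps of synthesis, sensing, uptake and efflux were all among the genes that fell. Of the 22 genes that did not pass, 17 had a log2 fold change below 0 and 5 above 0. The median over the 30 genes was -0.22 on the log2 scale, against -0.03 over all 16817 genes tested. Lower calls made up 4.28% of all genes tested and higher calls 2.34%, against 26.7% and 0 of these genes. The 30 genes were chosen with earlier results of these data known. This contrast and the later ones with all genes tested therefore describe the 30 and do not test them as a set. Tests were edgeR quasi-likelihood F tests with sex as a term and Benjamini-Hochberg adjustment over all genes tested, at an adjusted p of 0.05. At an unadjusted p under 0.05, 13 of these genes were lower and 0 higher, against 10.1% of all genes tested lower and 8.39% higher. DESeq2 called 10 lower and 0 higher, against 5.4% of all genes tested lower and 3.85% higher.

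**Figure D1:**
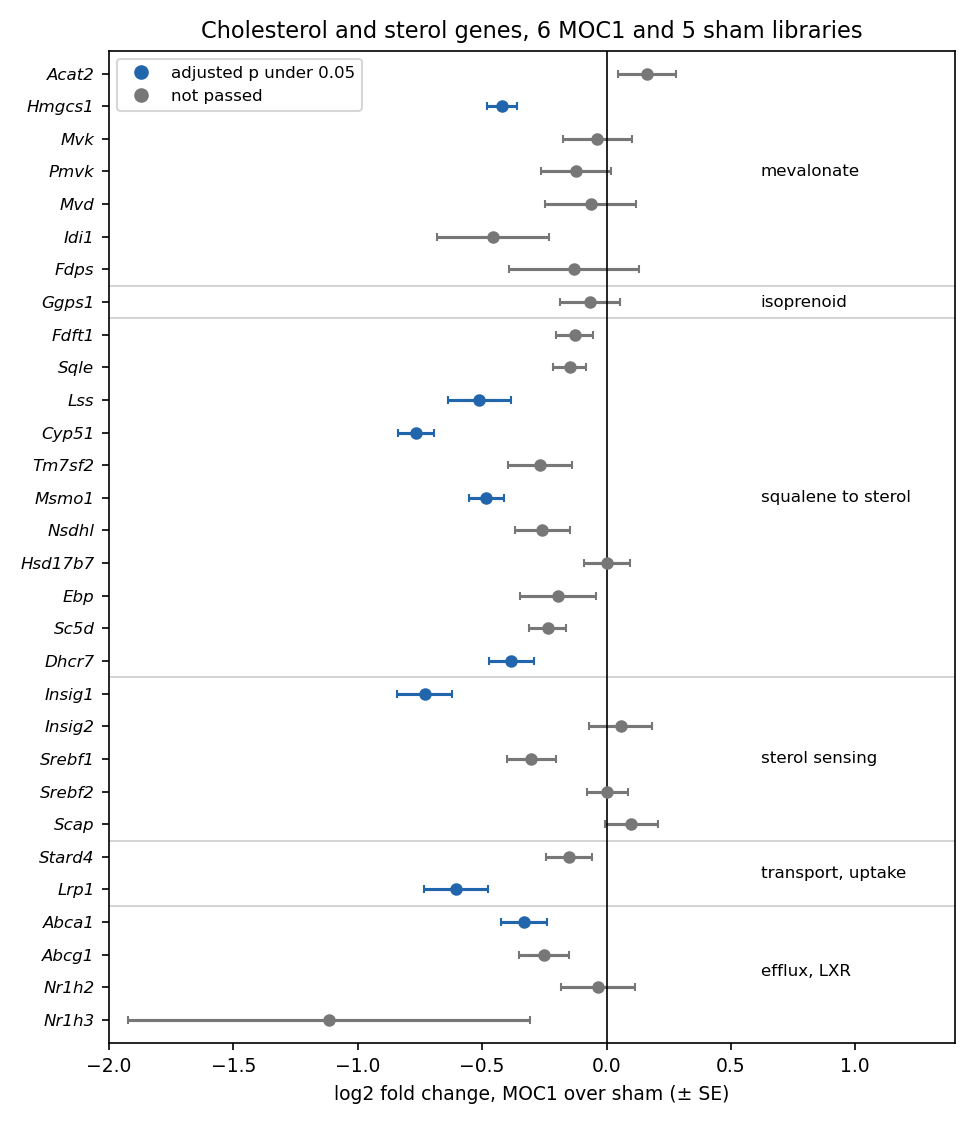
Log2 fold change of MOC1 over sham libraries for each of the 30 genes, grouped by role, with bars for 1 standard error (SE) and blue points for genes that passed the test. All 8 blue points lie left of 0 under TMM scaling, between -0.77 and -0.33, and Nr1h3 at the bottom has the widest bar. With satellite glia scaling, not drawn here, the 8 genes were above 0 but below the median of all genes, 1.08, which the scaling moved with them.

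Libraries held between 10757426 and 16703797 counts in genes, and the shallowest was MOC1 female 1. MOC1 female 3, MOC1 male 2 and MOC1 female 2 had the fewest genes detected, at 14180, 15327 and 16043. Satellite glia wrap sensory neuron bodies, and their 14 markers totalled 2630 ± 558 CPM across the MOC1 libraries (SD, n = 6; 1824 to 3462), against 5628 ± 522 CPM across the sham libraries (SD, n = 5; 5051 to 6255), with 13 of the 14 lower in MOC1. The 15 Schwann cell markers totalled 1391 ± 163 CPM in the MOC1 libraries, against 2252 ± 95.3 CPM in the sham libraries, with 5 lower. Of the 15, 11 had a log2 fold change below 0 and 4 above 0. The 20 pan-neuronal genes totalled 16625 ± 734 CPM in the MOC1 libraries, against 13965 ± 1170 CPM in the sham libraries, with 9 higher. All 3 sums were free of overlap between the arms (adjusted p = 0.00379 each, two-sided exact permutation test, the smallest this test can give before adjustment being 0.00216). Fibroblast markers totalled 65.1 ± 3.89 CPM in the MOC1 libraries, against 126 ± 35.4 CPM in the sham libraries (adjusted p = 0.00379, exact permutation test), with Dpt at 0 throughout. Of the 6 fibroblast markers tested singly, 1 was lower, and 5 had a log2 fold change below 0 and 1 above 0. Endothelial markers ranged from 113 to 207 CPM in the MOC1 libraries and from 115 to 1463 CPM in the sham libraries, the highest being sham female 1. Macrophage markers ranged from 7.72 to 26.1 CPM in the MOC1 libraries and from 13.5 to 33.6 CPM in the sham libraries. Squamous epithelium markers ranged from 8.13 to 13.9 CPM in the MOC1 libraries and from 9.22 to 10.9 CPM in the sham libraries, with Krt5, Krt6a and Krt17 at 0 in every library. In bulk RNA, fewer cells of a type and less RNA per cell cannot be told apart, and neurons and glia both express sterol genes. Refits with other scalings or with the glial sum as a covariate are given after the neighbouring pathways. They cannot say what share of the differences below goes with the lower glial sum.

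In the mevalonate route 1 of 7 enzymes fell. Hmgcs1, which joins acetoacetyl-CoA and acetyl-CoA to HMG-CoA, had a lowest, median and highest value of 826, 935 and 963 CPM in MOC1 libraries, against 1124, 1212, 1216, 1240 and 1378 CPM in the 5 sham libraries. The arms did not overlap, and the 2 lowest MOC1 values were those of MOC1 male 2 and MOC1 male 3. The mean was 914 ± 53.7 CPM across the MOC1 libraries (SD, n = 6), against 1234 ± 91.7 CPM across the sham libraries (SD, n = 5), a log2 fold change of -0.42 ± 0.06 (SE; adjusted p = 0.000153, edgeR). Hmgcs1 was the largest part of the summed CPM of the 18 synthesis enzymes, at no more than 32.9% of it in any MOC1 library and 34.8% in any sham library. That sum was 2889 ± 131 CPM in MOC1 (2650 to 3013) and 3622 ± 195 CPM in the sham libraries (3456 to 3958).

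The other 6 mevalonate genes did not pass, and all of them overlapped between the arms. Acat2, which makes acetoacetyl-CoA in the cytosol, averaged 112 ± 18.0 CPM in the MOC1 libraries, against 99.7 ± 12.6 CPM in the sham libraries (log2 0.16 ± 0.12, adjusted p = 0.527). It had the smallest p among the 5 genes above 0. The kinases Mvk (log2 -0.04 ± 0.14) and Pmvk (-0.12 ± 0.14), which phosphorylate mevalonate, and the decarboxylase Mvd (-0.06 ± 0.18) lay within 1 SE of 0. Idi1, the isomerase that forms dimethylallyl diphosphate, averaged 17.8 ± 5.96 CPM in the MOC1 libraries, against 23.5 ± 4.09 CPM in the sham libraries. Its log2 fold change of -0.46 ± 0.23 was close to that of Hmgcs1, but its SE was larger and it did not pass (adjusted p = 0.295). Fdps, which makes farnesyl diphosphate, had a log2 fold change of -0.13 ± 0.26, the widest SE of the 7. Ggps1 draws farnesyl diphosphate off into the isoprenoid branch, where it makes geranylgeranyl diphosphate for protein prenylation. It averaged 80.8 ± 12.0 CPM in the MOC1 libraries, against 84.6 ± 11.8 CPM in the sham libraries (log2 -0.07 ± 0.12, adjusted p = 0.859).

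From squalene to cholesterol 4 of 11 enzymes fell, and 10 of the 11 had a log2 fold change below 0. Cyp51, the demethylase that acts on lanosterol, had a lowest, median and highest value of 132, 142 and 150 CPM in MOC1 libraries, against 232, 234, 237, 238 and 271 CPM in the sham libraries. The arms did not overlap, and the gap between them was wider than the range of values inside either arm. The mean was 142 ± 6.00 CPM in the MOC1 libraries, against 242 ± 16.2 CPM in the sham libraries, a log2 fold change of -0.77 ± 0.07 (adjusted p = 3.7e-06, edgeR). Cyp51 ranked 14 of 16817 genes by p. In the files Cyp51 spans chromosome 5 from 4081145 to 4104746 (GRCm38), and Hmgcs1 spans chromosome 13 from 119690379 to 119708260.

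Msmo1, the methyl oxidase that starts the removal of the methyl groups left after Cyp51, had a lowest, median and highest value of 243, 265 and 306 CPM in MOC1 libraries, against 339, 368, 378, 388 and 414 CPM in the sham libraries. The arms did not overlap, and MOC1 female 3 was the highest MOC1 library. The means were 267 ± 22.5 CPM in the MOC1 libraries, against 378 ± 27.4 CPM in the sham libraries (log2 -0.48 ± 0.07, adjusted p = 0.000178, edgeR). Dhcr7, the reductase of the last step to cholesterol, had a lowest, median and highest value of 80.1, 92.7 and 101 CPM in MOC1 libraries, against 104, 106, 115, 129 and 135 CPM in the sham libraries. Here the arms came close without overlapping, and the 2 male sham libraries were the highest. The log2 fold change was -0.38 ± 0.09 (adjusted p = 0.0127, edgeR). Without sham male 1 the adjusted p was above the threshold, at 0.0589.

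Lss, the cyclase that folds oxidosqualene into lanosterol, had a lowest, median and highest value of 71.6, 91.3 and 123 CPM in MOC1 libraries, against 114, 119, 143, 145 and 145 CPM in the sham libraries. The arms overlapped through MOC1 male 2, which lay above both male sham libraries. The log2 fold change was -0.51 ± 0.13 (adjusted p = 0.0166, edgeR). Lss was not called without MOC1 female 1 or without MOC1 female 2, where the adjusted p reached up to 0.0617.

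Sc5d, a desaturase near the end of the route, lay just outside the threshold with arms that did not overlap, at 217 ± 17.2 CPM in the MOC1 libraries, against 256 ± 10.6 CPM in the sham libraries (log2 -0.24 ± 0.07, adjusted p = 0.0635, edgeR). It passed in DESeq2 (adjusted p = 0.0189), with total-count or pan-neuronal scaling and without MOC1 male 1. The epoxidase Sqle, which oxidises squalene, averaged 342 ± 19.3 CPM in the MOC1 libraries, against 379 ± 18.3 CPM in the sham libraries (log2 -0.15 ± 0.07, adjusted p = 0.227). Fdft1, which makes squalene, had a log2 fold change of -0.13 ± 0.08. The reductase Tm7sf2 (-0.27 ± 0.13), the dehydrogenase Nsdhl (-0.26 ± 0.11), which works with Msmo1 in removing the methyl groups, and the isomerase Ebp (-0.19 ± 0.15) did not pass either. Hsd17b7, the ketoreductase of the same demethylation, stood at 89.7 ± 10.7 CPM in the MOC1 libraries, against 90.5 ± 7.06 CPM in the sham libraries (log2 0.00 ± 0.09).

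**Figure D2:**
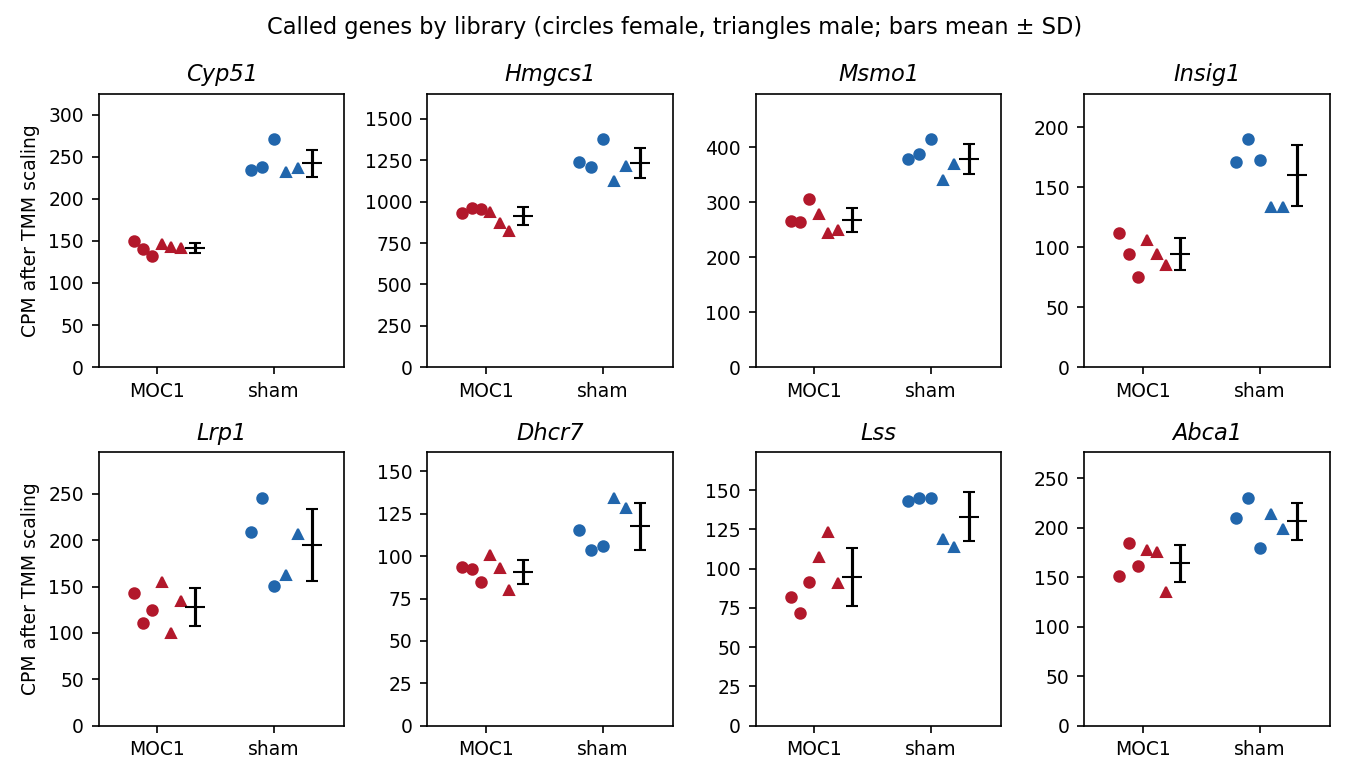
CPM after TMM scaling in each library for the 8 genes that fell, MOC1 in red and sham in blue, circles for females and triangles for males, with the mean and SD beside each arm. Cyp51, Hmgcs1, Msmo1, Insig1 and Dhcr7 show arms without overlap, while Lrp1, Lss and Abca1 overlap through 1 or more libraries.

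Among the 5 sensing genes only Insig1 fell. Insig1, whose product retains SCAP and SREBP in the endoplasmic reticulum and is itself an SREBP target, had a lowest, median and highest value of 75.0, 94.4 and 112 CPM in MOC1 libraries, against 133, 134, 171, 172 and 190 CPM in the sham libraries. The arms did not overlap, and within sham both male libraries lay below the 3 female ones. The log2 fold change was -0.73 ± 0.11 (adjusted p = 0.000326, edgeR). Its relative Insig2, which has the same function, averaged 43.6 ± 5.09 CPM in the MOC1 libraries, against 41.9 ± 3.35 CPM in the sham libraries (log2 0.06 ± 0.13, adjusted p = 0.886). Per exon length Insig1 stood at 129 ± 19.4 TPM in MOC1 and 215 ± 32.0 TPM in sham libraries, and Insig2 at 52.8 ± 5.84 TPM in MOC1 and 50.3 ± 4.39 TPM in sham libraries.

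Srebf2, which encodes SREBP-2, averaged 273 ± 31.4 CPM in the MOC1 libraries, against 269 ± 27.2 CPM in the sham libraries (log2 0.00 ± 0.08, adjusted p = 0.993). Scap averaged 70.3 ± 8.71 CPM in the MOC1 libraries, against 65.3 ± 4.15 CPM in the sham libraries (log2 0.10 ± 0.11, adjusted p = 0.718). Srebf1, which encodes SREBP-1, the form that serves mainly fatty acid genes, was at 54.4 ± 3.04 CPM in the MOC1 libraries, against 67.4 ± 3.70 CPM in the sham libraries. Its arms did not overlap, but it did not pass in edgeR (log2 -0.30 ± 0.10, adjusted p = 0.0755), while DESeq2 gave an adjusted p of 0.0292. SREBP activity is set by cleavage of the protein, which transcript counts do not measure.

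Of the transport and efflux genes, Lrp1 and Abca1 fell. Lrp1, a large receptor that takes up lipoproteins carrying apolipoprotein E, had a lowest, median and highest value of 99.6, 129 and 155 CPM in MOC1 libraries, against 150, 163, 207, 208 and 246 CPM in the sham libraries. The arms overlapped by 1 MOC1 library, MOC1 male 1, which lay above sham female 3. The means were 128 ± 20.3 CPM in the MOC1 libraries, against 195 ± 38.6 CPM in the sham libraries (log2 -0.60 ± 0.13, adjusted p = 0.00645, edgeR). Stard4, a carrier of cholesterol between membranes inside the cell, averaged 150 ± 14.6 CPM in the MOC1 libraries, against 168 ± 19.2 CPM in the sham libraries (log2 -0.15 ± 0.09, adjusted p = 0.436).

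Abca1, which loads cholesterol onto apolipoproteins, had a lowest, median and highest value of 135, 168 and 185 CPM in MOC1 libraries, against 180, 199, 210, 213 and 230 CPM in the sham libraries. The arms overlapped through MOC1 female 2 and sham female 3. The log2 fold change was -0.33 ± 0.09 (adjusted p = 0.0352, edgeR), and it is the least secure of the 8. Abca1 was called in 4 of the 11 fits that left out a library each, and the adjusted p reached 0.111. It was lost without MOC1 female 1, MOC1 female 3, MOC1 male 3, sham female 1, sham female 2, sham male 1 or sham male 3. Abcg1, the other pump, averaged 93.3 ± 11.6 CPM in the MOC1 libraries, against 111 ± 8.81 CPM in the sham libraries (log2 -0.25 ± 0.10, adjusted p = 0.166). Nr1h2, which encodes LXR beta, had a log2 fold change of -0.03 ± 0.15. Nr1h3, which encodes LXR alpha, was near the limit of detection, at 0.0735 to 2.10 CPM in the MOC1 libraries, against 1.91 to 3.98 CPM in the sham libraries (log2 -1.11 ± 0.81, adjusted p = 0.536).

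Counted by overlap, 7 of the 30 genes (23.3%) had every MOC1 library below every sham library: Hmgcs1, Cyp51, Msmo1, Insig1, Dhcr7, Sc5d and Srebf1. Over all genes tested 4.18% did so in this direction, and 2.15% in the other direction, where none of the 30 did. Of the 8 genes that passed the test, 5 are among them. Across the 18 synthesis enzymes, between 11 and 18 lay below their sham mean in a MOC1 library and between 2 and 11 in a sham library. The median log2 ratio of those enzymes to the sham mean lay between -0.39 and -0.11 in the MOC1 libraries and between -0.05 and 0.10 in the sham libraries. The MOC1 female 3 library had the lowest median and also the lowest satellite glia sum, with 12 of the 18 enzymes below their sham mean. MOC1 female 1 had the highest satellite glia sum of its arm, with a median of -0.25 and 17 of the 18 below. MOC1 male 1 had the highest median of its arm.

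**Figure D3:**
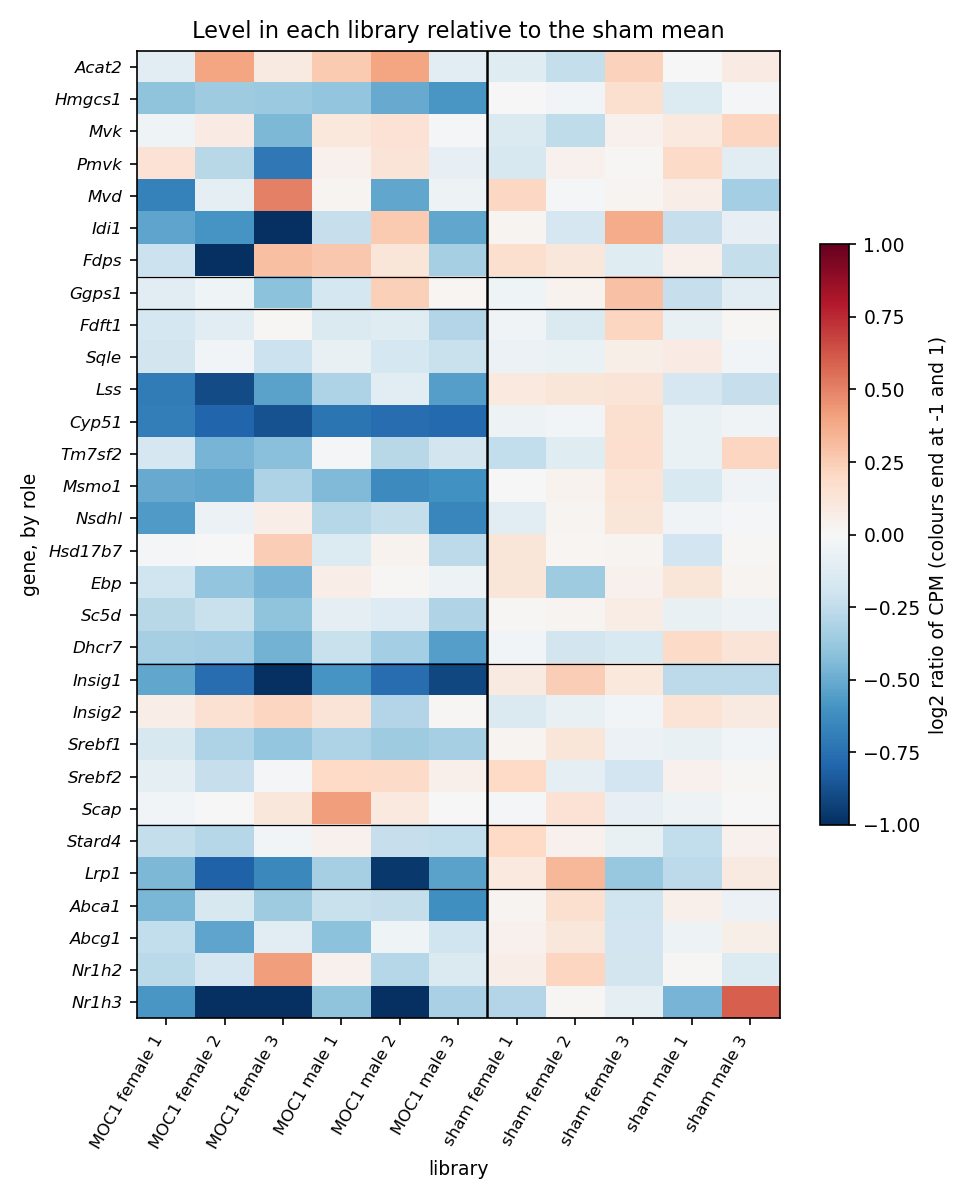
Log2 ratio of CPM in each library to the sham mean for the 30 genes by role, MOC1 libraries left of the line and sham libraries right of it, with colours that end at -1 and 1. Cyp51, Hmgcs1, Msmo1, Insig1 and Lrp1 are blue in all 6 MOC1 columns, while Srebf2, Scap, Insig2 and Acat2 hold both colours.

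Levels between genes were compared per exon length, in TPM (counts divided by exon length and then scaled to library size). The length joins all annotated exons of a gene and can exceed that of the transcript present, so ranks between genes are approximate. Hmgcs1 was the highest of the 30 in both arms, at 837 ± 42.5 TPM in MOC1 and 1119 ± 69.0 TPM in sham libraries. Fdft1 (293 ± 19.3 TPM in MOC1 and 318 ± 27.3 TPM in sham libraries) and Sqle (259 ± 12.2 TPM in MOC1 and 285 ± 12.8 TPM in sham libraries) came next. Msmo1, at 183 ± 16.3 TPM, and Sc5d, at 188 ± 17.8 TPM, lay within their spread of each other in MOC1 libraries, while in sham libraries Msmo1 stood at 256 ± 15.2 TPM and Sc5d at 219 ± 6.24 TPM. Cyp51 stood at 136 ± 8.32 TPM in MOC1 and 228 ± 11.4 TPM in sham libraries. At the low end were Fdps (15.9 ± 5.78 TPM in MOC1 and 16.9 ± 1.96 TPM in sham libraries), Idi1 (21.5 ± 7.51 TPM in MOC1 and 27.9 ± 4.42 TPM in sham libraries) and Nr1h3 (2.26 ± 1.35 TPM in MOC1 and 4.37 ± 1.39 TPM in sham libraries). The files count reads that map to several places in a total of their own, so a gene with near-identical copies in the genome may be undercounted, which affects its level.

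The labels give both sexes, so each was compared on its own with a shared estimate of the spread. In females 6 genes fell, Cyp51, Hmgcs1, Insig1, Lrp1, Lss and Msmo1, so 6 of 30 against 3.15% of all genes tested. In males 3 fell, Cyp51, Hmgcs1 and Msmo1, so 3 of 30 against 1.09%. Cyp51 had a log2 fold change of -0.82 ± 0.10 in females and -0.71 ± 0.11 in males, Hmgcs1 of -0.43 ± 0.08 in females and -0.41 ± 0.09 in males, and Msmo1 of -0.50 ± 0.10 in females and -0.46 ± 0.11 in males. Of the 30 genes, 22 were below 0 in both sexes. The male comparison rests on 3 MOC1 and 2 sham libraries, and without MOC1 male 2, MOC1 male 3, sham male 1 or sham male 3 it called 1 of the 30.

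No gene among the 30, and 0% of all genes tested, passed the test of a difference between the sexes (edgeR interaction term; DESeq2 called 0 of the 30 as well). At an unadjusted p under 0.05 there were 3, Lss, Ggps1 and Insig1, against 4.21% of all genes tested. Lss had the clearest contrast. It stood at 71.6, 82.0 and 91.7 CPM in MOC1 females, against 143, 145 and 145 CPM in sham females, and at 90.9, 108 and 123 CPM in MOC1 males, against 114 and 119 CPM in sham males. The female libraries were wholly apart and the male libraries overlapped. Its log2 fold change was -0.82 ± 0.13 in females and -0.12 ± 0.14 in males, a difference of -0.70 ± 0.19 (unadjusted p = 0.00199, adjusted p = 0.9999, edgeR). Insig1 had a log2 fold change of -0.92 ± 0.14 in females and -0.49 ± 0.15 in males (unadjusted p of the difference = 0.0461, edgeR), and Ggps1 of -0.28 ± 0.15 in females and 0.20 ± 0.16 in males (unadjusted p = 0.0437, edgeR).

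**Figure D4:**
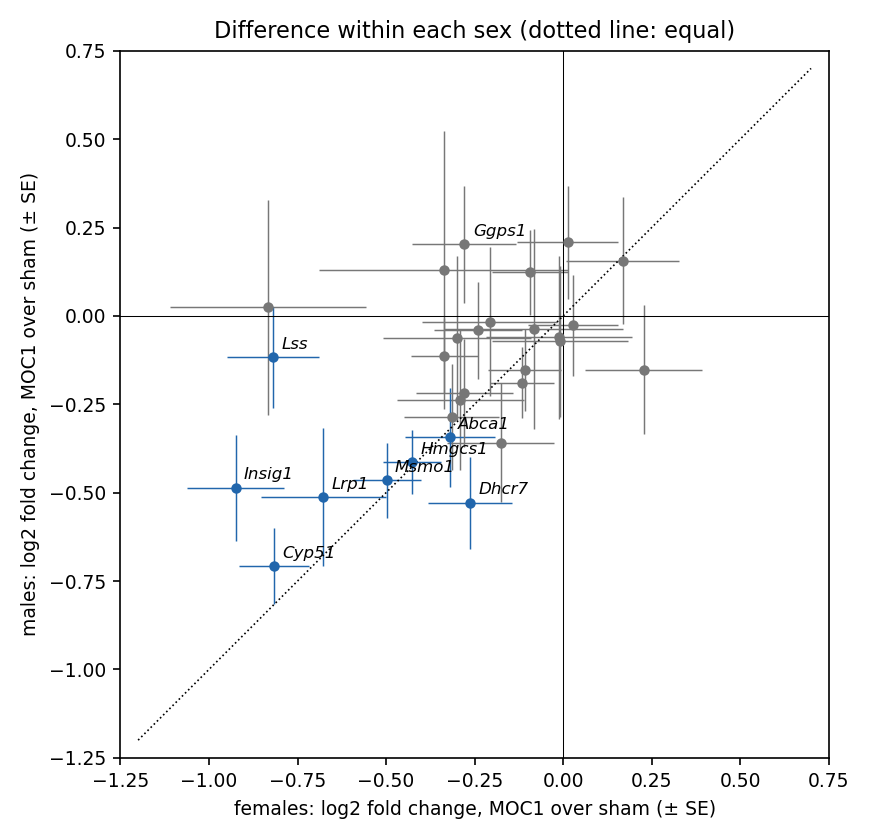
Log2 fold change of MOC1 over sham within females (horizontal) and within males (vertical) for 29 of the 30 genes, Nr1h3 being left out for its wide error, with bars for 1 SE and blue points for genes that passed the test over both sexes. Cyp51, Hmgcs1, Msmo1 and Abca1 lie near the dotted line of equal change, and Lss lies far from it.

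Neighbouring pathways were counted in the same fit, from lists also chosen with earlier results of these data known. Of all genes tested, 4.28% were lower and 2.34% higher under TMM scaling, and DESeq2 called 5.4% lower. Pan-neuronal scaling gave 2025 of all 16817 genes lower, and satellite glia scaling gave 50 lower and 10060 higher. Of 13 fatty acid genes that SREBP proteins are known to serve, 8 fell and none rose under TMM scaling, with a median log2 fold change of -0.44, while satellite glia scaling gave 0 lower and 12 higher. DESeq2 called the same number, 8. They included the desaturases Fads2 (205 ± 23.7 CPM in the MOC1 libraries, against 352 ± 12.0 CPM in the sham libraries; log2 -0.78 ± 0.08), Fads1 (-0.69 ± 0.08) and Scd2 (-0.44 ± 0.06) and the malic enzyme Me1 (-0.64 ± 0.08), which supplies NADPH. Of the 11 genes of SREBP processing and turnover none passed in edgeR or DESeq2, and 0 had an unadjusted p under 0.05 in either tool, while pan-neuronal scaling gave 2 lower and satellite glia scaling 0 lower and 11 higher. The 2 with the smallest p were the endoplasmic reticulum protein Erlin2 (log2 -0.22 ± 0.11, adjusted p = 0.273) and the ubiquitin ligase Rnf139 (-0.16 ± 0.12, adjusted p = 0.575). Of the 10 genes that use isoprenoids 1 fell, Fnta, the shared alpha subunit of the prenyl transferases (91.1 ± 13.1 CPM in the MOC1 libraries, against 138 ± 16.3 CPM in the sham libraries; log2 -0.59 ± 0.11, adjusted p = 0.0016). Fnta was at 0.51 after satellite glia scaling (adjusted p = 0.0176, edgeR), which gave 0 of the 10 lower and 8 higher, and DESeq2 called 2 lower.

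Of 27 genes of sterol carriage and storage, 5 fell and 1 rose under TMM scaling, with a median log2 fold change of 0.03, while satellite glia scaling gave 0 lower and 19 higher. Apoe, the lipoprotein component that satellite glia also make, stood at 2206 ± 403 CPM in the MOC1 libraries, against 4832 ± 485 CPM in the sham libraries (log2 -1.14 ± 0.10), and it was at -0.06 after satellite glia scaling. Npc2, which hands cholesterol out of lysosomes, fell by 0.55 ± 0.09 on the log2 scale, Gramd1b, which carries it from the plasma membrane to the endoplasmic reticulum, by 0.47 ± 0.08, and Soat1, which esterifies it, by 0.62 ± 0.14. The 1 that rose, named after its value was seen, was the transporter Abca7, at 210 ± 24.7 CPM in the MOC1 libraries, against 168 ± 10.4 CPM in the sham libraries (log2 0.31 ± 0.09, adjusted p = 0.0342, edgeR). It was at 0.03 after pan-neuronal scaling (adjusted p = 0.900).

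The satellite glia sum was lower in every MOC1 library than in any sham library. With that sum as a covariate no gene of all those tested was called by edgeR, while 1466 genes had an unadjusted p under 0.05. Of the 30 genes 6 did, with adjusted p-values of 0.444 or more in edgeR, namely Cyp51 (log2 -0.61), Msmo1 (-0.69), Hmgcs1 (-0.45), Mvd (-1.31), Nsdhl (-0.80) and Pmvk (0.76). Insig1 was at 0.03 in that fit (adjusted p = 0.981, edgeR), and Dhcr7, Lrp1, Lss and Abca1 lay between -0.31 and -0.23. Because the sum does not overlap between the arms, it and the tumour cannot be told apart in this fit. After scaling to the pan-neuronal genes the median of all genes moved to -0.30. There 16 of the 30 genes were lower and 0 higher, against 2025 lower and 27 higher of all 16817 tested. After scaling to the satellite glia markers the median of all genes moved to 1.08. There 0 of the 30 were lower and 27 higher, against 50 lower and 10060 higher of all tested. The 8 genes that fell under TMM scaling lay below the median of all genes in each of these fits. For the scalings this was largely given in advance, since a scaling moves all genes by nearly the same amount. In the covariate fit the median of all genes was 0.10, and Insig1 at 0.03 lay close to it. The part of the glial content in each loss was not tested, and these fits cannot give it.

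**Figure D5:**
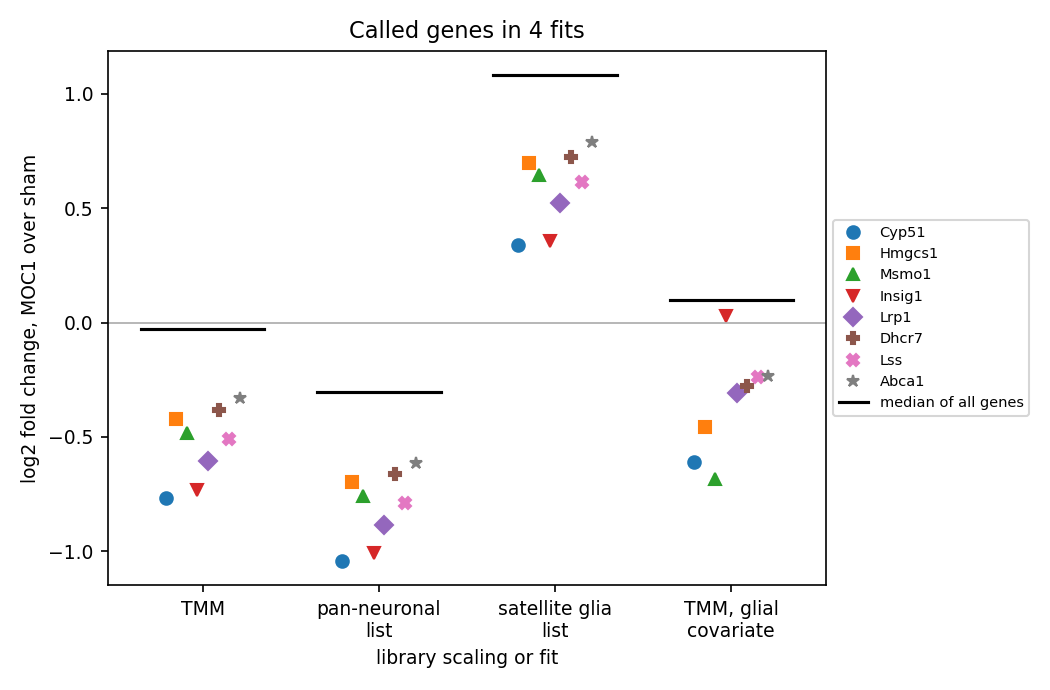
Log2 fold change of MOC1 over sham for the 8 genes that fell, in 4 fits along the horizontal axis (TMM, pan-neuronal scaling, satellite glia scaling, and TMM with the satellite glia sum as a covariate), with a black line for the median of all genes tested. The points move together with the black line between the scalings, so that all 8 are above 0 with scaling to satellite glia, and Insig1 is at 0.03 with the covariate. In each of the 4 fits all 8 lie below the black line, which for the scalings follows from that common shift.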

How the data were processed

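Sequencing was of poly(A) RNA with single-end reads, per the labels' protocols. The deposited files hold raw read counts per gene without normalization, and they are stranded, per the file headers. Trimmomatic 0.35, STAR 2.7.1a, GRCm38 (mm10) and RSEM are named in the submitters' processing notes, and which annotation was used is not stated in the sources at hand. Counts that name no gene, 18.7% to 21.5% of all counts, entered neither library sizes nor tests. Intervals of counting error are not given, and depth was 10757426 to 16703797 gene counts per library.

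Counts were tested in R 4.3.3 with edgeR 4.0.16 (filterByExpr on condition and sex together, 16817 genes kept, TMM, quasi-likelihood F test with sex, Benjamini-Hochberg over all genes, threshold 0.05). A fit with 4 group means gave the comparisons within each sex and their difference. SE is the size of the log2 fold change divided by the root of F. Levels are given as mean ± SD, in CPM after TMM scaling or TPM from GENCODE M21 exon lengths, which 55141 of the gene identifiers matched. Marker sums are CPM of all gene counts without TMM, with a two-sided exact permutation over 462 regroupings, adjusted over 7 lists. The tests were run on simulated counts first.

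The 30 genes and all lists were chosen with earlier results of these data known. All 30 are named; of other lists at most 4 called genes by smallest p, or 2 where none was called. The lists of pathway genes and markers hold no gene of the 30. Promoter stretches were cut before any annotated untranslated region, and shown for genes that fell and kept a motif. Libraries of a group always differed by more than sampling noise (chi-square per degree of freedom 13.9 to 42.4). Alternatives were DESeq2 1.42.0, its size factors, voom with quality weights (limma 3.58.1), total-count scaling, scaling to the pan-neuronal or satellite glia list, no low-count filter, at least 1 CPM in 5 libraries, each library left out, 3 libraries left out together, no sex term, the replicate number as a block and a satellite glia covariate.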

Additional observations from a re-analysis of the deposited data

Results flagged for a closer look

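Dixon's ratio was applied to each of the 30 genes in its MOC1 and in its sham libraries, 60 groups in all, and chance sets apart a library in about 1 in 20 groups. It did so in 5. Mvk was low in MOC1 female 3, at 24.9 CPM against 32.9 to 37.6 CPM in the other MOC1 libraries. Cyp51 was high in sham female 3, at 271 CPM against 232 to 238 CPM in the other sham libraries. Ebp was low in sham female 2, at 21.6 CPM against 28.2 to 30.2 CPM. Srebf1 was high in MOC1 female 1, at 60.2 CPM against 51.5 to 54.4 CPM, and Scap was high in MOC1 male 1, at 87.2 CPM against 64.0 to 70.7 CPM. Cyp51 was called in each of the 11 fits that left out a library, sham female 3 included. The other 4 genes did not pass with all libraries.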

How the results depend on the processing

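Of the values of single genes under 23 alternatives, 584 kept their direction and side of the threshold, 19 passed newly, 17 passed no longer, 25 changed sign with a call on at least 1 side and 45 changed sign with no call on either. Leaving out each library gave 6 to 9 genes lower, and Cyp51, Hmgcs1, Msmo1, Insig1 and Lrp1 were called in all 11 such fits. Without sham female 1, MOC1 female 3 and MOC1 male 2 together, 9 were lower, the 8 and Nsdhl. The count within males was 3, or 1 to 4 leaving out each library and 5 with no low-count filter. Scaling to the pan-neuronal list gave 16 lower and 2052 genes called of all tested (1113 as reported). Scaling to satellite glia gave 0 lower, 27 higher and 10110 genes called, and the satellite glia covariate 0 lower and 0 genes called. By construction, satellite glia scaling raised the median of all genes to 1.08, and the log2 fold changes that turned positive were Hmgcs1 0.70, Mvk 1.05, Pmvk 0.94, Mvd 1.121, Idi1 0.61, Fdps 1.03, Fdft1 0.99, Sqle 0.96, Lss 0.62, Cyp51 0.34, Tm7sf2 0.84, Msmo1 0.65, Nsdhl 0.88, Ebp 0.91, Sc5d 0.87, Dhcr7 0.72, Insig1 0.36, Srebf1 0.81, Stard4 0.99, Ggps1 1.03, Abca1 0.79, Abcg1 0.88, Nr1h2 1.13 and Lrp1 0.52. With the covariate, Insig1 was at 0.0288, and the uncalled genes that changed sign were Mvk 0.29, Pmvk 0.76, Idi1 0.62, Hsd17b7 -0.13, Ebp 0.0988, Sc5d 0.00847, Insig2 -0.33, Ggps1 0.39 and Nr1h3 2.36. Pan-neuronal scaling did so for Acat2 -0.11, Hsd17b7 -0.28, Insig2 -0.22, Srebf2 -0.28 and Scap -0.18. Near 0, Hsd17b7 was at -0.0375 with voom, -0.0178 with total counts, -0.0284 with the replicate block, -0.0125 with no sex term and -0.0637 without the 3 libraries, Srebf2 at -0.0181 with total counts and -0.0121 with the block, and Mvk at 0.00935 without the 3 libraries. Leaving out each library, 7 genes crossed 0: Mvk (-0.0965 to 0.0293), Mvd (-0.23 to 0.0608), Fdps (-0.31 to 0.0720), Hsd17b7 (-0.0444 to 0.0451), Srebf2 (-0.0261 to 0.0798), Ggps1 (-0.14 to 0.0138) and Nr1h2 (-0.16 to 0.0279). Deviations from the group means were little correlated between libraries of the same sex and replicate number (-0.056 to 0.024). No source says that the numbers pair samples, and this check cannot exclude a small shared effect. With the replicate number as a block 8 were lower, the same 8 genes. Depth limits what can be said of Nr1h3, which averaged 1.34 CPM in the MOC1 and 2.63 CPM in the sham libraries.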
